A study of Homo sapiens with 4 samples.

Results

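LINC-PINT and PURPL are 2 long non-coding RNA (lncRNA) genes known as transcripts that the tumour suppressor p53 induces. They were examined here isoform by isoform in HUH7, an established hepatocellular carcinoma line that carries a mutant p53. Members were all deposited transcripts whose identifier, with its version removed, belongs to either gene in GENCODE release 44 mapped to GRCh37. This gave 17 of 19835 transcripts, 11 of LINC-PINT and 6 of PURPL. The study measured non-coding RNA in HUH7 to choose lncRNAs for a knockdown screen. All 4 libraries, named replicates 1 to 4, came from cells in serum-containing medium with no treatment named in the labels and form 1 group, so there was no p53 activation, no p53 wild-type line and no control arm. Replicates 1 and 3 carry the letter L in their titles and replicates 2 and 4 the letter H. The submitters call these internal names and not variables of the study, so the letters entered no test. The comparisons were therefore those of isoforms and genes with each other and with 5 FPKM, the cut-off that the study applied to transcripts. FPKM counts fragments per length of transcript and per total of mapped fragments, so it can be set side by side between transcripts of different length. Values after ± are SDs over the 4 libraries.

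As background, p53 is a transcription factor that binds a pair of decamers, together called a p53 response element, and switches on genes of cell cycle arrest and apoptosis after DNA damage. Its non-coding targets include RNAs that act on chromatin and RNAs that feed back on p53 itself. LINC-PINT belongs to the first kind and is known for its contact with the Polycomb repressive complex PRC2, first described in mouse. PURPL belongs to the second kind and is known for holding down basal p53 through the p53-binding protein MYBBP1A. The LINC-PINT gene as now annotated also overlaps the transcript from which the microRNAs miR-29a and miR-29b-1 are cut, a family that targets mRNAs of collagens and DNA methyltransferases.

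LINC-PINT (ENSG00000231721, minus strand of chromosome 7) holds RNAs with distinct starts, and 2 microRNA hairpins lie in or across its 3' end. The mature sequences of their 3p arms are shown because they are the known products of this end of the gene. Capitals mark the seed, bases 2 to 8, which both arms share, and the sequences are from RefSeq on GRCh38.p14.
hsa-miR-29a-3p: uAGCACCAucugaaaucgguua
hsa-miR-29b-3p: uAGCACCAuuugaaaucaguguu
Both hairpins were located on GRCh37 by their own sequence. MIR29B1 (chr7:130562218-130562298, minus strand) lies whole in the last exon of the transcript ENST00000432045 as annotated now. MIR29A (chr7:130561506-130561569) reaches only 2 bases into the end of that exon. The microRNAs themselves were not measured in these libraries.

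PURPL (ENSG00000250337, plus strand of chromosome 5) starts beside an exact p53 response element. The sequence of its leading transcript's promoter, GRCh37 chr5:27472128-27472427, plus strand, is shown with that element in capitals. It runs from 250 bases before the annotated start to 50 bases from it.
PURPL promoter: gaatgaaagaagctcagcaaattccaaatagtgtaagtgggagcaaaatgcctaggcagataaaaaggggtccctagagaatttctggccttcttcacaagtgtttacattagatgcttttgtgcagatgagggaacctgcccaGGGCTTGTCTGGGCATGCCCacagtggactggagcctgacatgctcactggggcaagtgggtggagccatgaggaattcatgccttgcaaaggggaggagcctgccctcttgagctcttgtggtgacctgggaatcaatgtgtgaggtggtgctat
The element, GGGCTTGTCTGGGCATGCCC, begins 106 bases before the start of ENST00000510165 and joins 2 decamers of the p53 consensus with no spacer. Because the starts of all 6 PURPL transcripts lie within 27472353 to 27472393, all 6 windows held it, and they are not independent. Promoter windows of all 11 LINC-PINT transcripts held 0 decamers, and no full element lay within 2000 bases on either side of any LINC-PINT start. These wider LINC-PINT windows held 1 to 4 decamers each, and those of nearby starts overlap. Such counts are common, since 66.3% of 17808 windows of this size held a decamer and 30.5% held at least 2. Absence of a full element does not set LINC-PINT apart, since only 0.146% of 17808 windows of the wider size held one. The search was for exact matches to the consensus without a spacer, on a pattern that reads the same on both strands. For scale, a single decamer was found in 7.64% of 17822 windows of 300 bases around the starts of matched transcripts. A full element was found in 8 of these windows, or 0.0449%. Those 8 windows belonged to 4 of 11455 genes: PURPL, LNCTAM34A, which starts beside the miR-34a locus, ENSG00000225420 and ENSG00000290644. The PURPL windows themselves are among the 8, and ENST00000510165 and ENST00000514844, which have the same start, share a window. Their levels differed widely, with PURPL at 58.3 ± 8.92 FPKM, ENSG00000225420 at 7.02 ± 1.35 FPKM, LNCTAM34A at 0.535 ± 0.618 FPKM and ENSG00000290644 at 0.128 ± 0.194 FPKM. A match describes these letters only, since binding of p53 was not measured.

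Both genes were expressed well above 5 FPKM. Summed over its transcripts, LINC-PINT had 188.04, 245.81, 197.85 and 160.62 FPKM in replicates 1 to 4, a mean of 198 ± 35.5 FPKM. PURPL had 55.54, 62.24, 68.16 and 47.41 FPKM, a mean of 58.3 ± 8.92 FPKM. LINC-PINT was both highest and lowest in the libraries with the letter H, and for PURPL the ranges of both letters overlapped. The lowest LINC-PINT library was above the highest PURPL library, and replicate 4 was the lowest for both genes. Against 5 FPKM, LINC-PINT was higher by 5.04 ± 0.10 (SE) on the log2(FPKM + 1) scale, with an adjusted p of 8.0e-16 in limma. PURPL was higher by 3.29 ± 0.10 (SE) on the same scale, with an adjusted p of 2.7e-13 in limma. This call is common, since 50.3% of 7124 genes tested were called above 5 FPKM. Within the libraries, LINC-PINT ranked higher than 91.9% to 93.9% of the genes tested and PURPL higher than 77.8% to 81.8%, while the median tested gene had 7.61 FPKM. With each library divided to a common sum of 1000000, the means were 105.6 FPKM for LINC-PINT and 31 FPKM for PURPL, and both calls held. The labels do not state whether the 4 libraries are separate cultures, so these p-values measure a spread that may be technical.

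**Figure D1:**
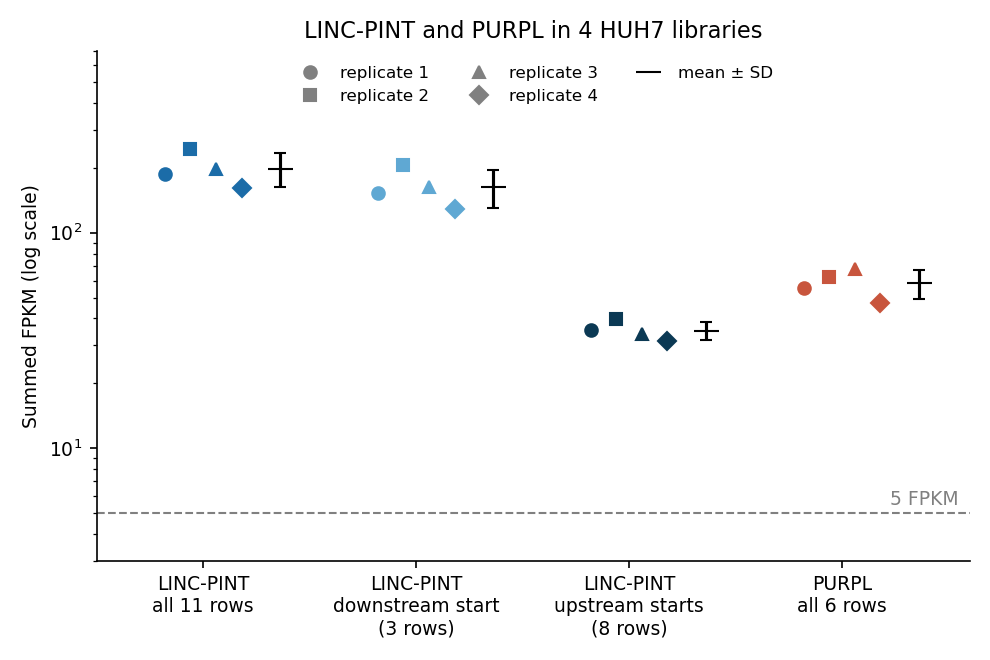
Summed FPKM (log axis) of LINC-PINT over all its transcripts, over the 3 transcripts of its downstream start and over the 8 transcripts of its upstream starts, and of PURPL. Markers are the 4 HUH7 libraries, bars the mean ± SD, and the dashed line 5 FPKM. LINC-PINT as a whole (198 ± 35.5 FPKM) and its downstream start lie above PURPL (58.3 ± 8.92 FPKM) in every library, and its upstream starts (35.1 ± 3.52 FPKM) lie below PURPL in every library.

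Within each library LINC-PINT exceeded PURPL, with log2 ratios of FPKM + 1 of 1.74, 1.96, 1.52 and 1.74 in replicates 1 to 4. The mean was 1.74 ± 0.18, or 3.35-fold on that scale, and LINC-PINT was higher in 4 of 4 libraries. The exact two-sided sign-flip permutation test gave p = 0.13, the smallest that 4 libraries allow. This order depended on which LINC-PINT transcripts were counted. With those of the upstream starts alone, the log2 ratio over PURPL was -0.64, -0.63, -0.98 and -0.58 in replicates 1 to 4, a mean of -0.71 ± 0.19. By FPKM, LINC-PINT was then lower than PURPL in 4 of 4 libraries, by 1.63-fold (exact permutation p = 0.13, again the smallest possible). By fragments estimated from current models, as described below, the mean log2 ratio over all transcripts was 1.51. LINC-PINT then had about 900 fragments per library and PURPL about 316. The upstream starts held 48.4 ± 2.82% of the LINC-PINT fragments, which is more than PURPL had, so their lower order holds by FPKM only.

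The 11 LINC-PINT transcripts fell into 5 groups of starts when starts within 1000 bases were joined. Group 1 is the most upstream start, at chr7:130794935, beside the coding gene MKLN1 on the opposite strand. Group 5 holds the 3 transcripts that start 197 kb downstream of it, between 130597935 and 130598069. Groups 2, 3 and 4 start 139 kb to 195 kb before group 5. No LINC-PINT exon of groups 1 to 4 reaches group 5, so the upstream and downstream transcripts share no exon. ENST00000432045, which as annotated now holds MIR29B1, is 1 of the 3 transcripts of group 5.

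**Figure D2:**
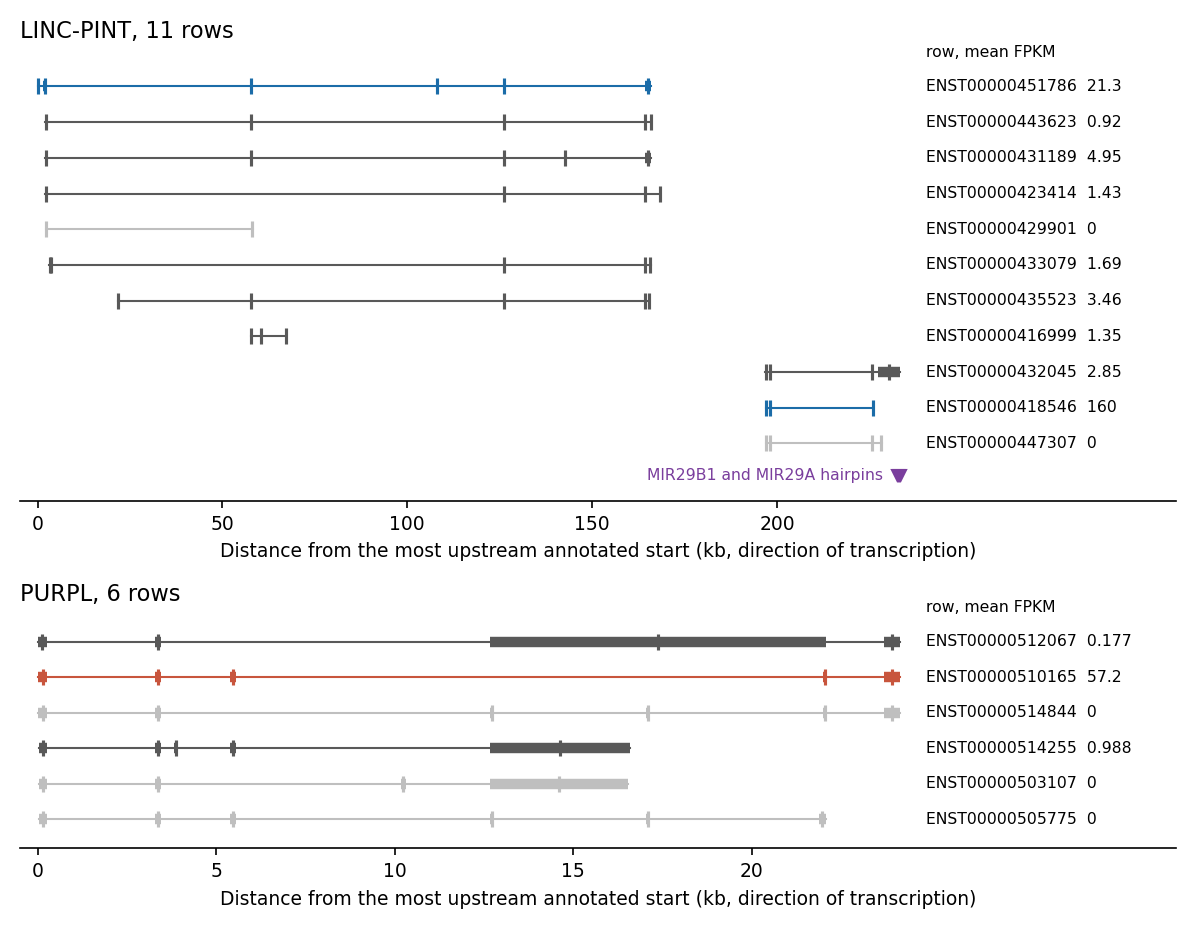
Transcripts of LINC-PINT (upper) and PURPL (lower) along the direction of transcription, as distance in kb from the most upstream annotated start, with exons as thick bars to scale and a tick at each exon centre. Coloured transcripts averaged above 5 FPKM, dark grey ones lower and light grey ones were listed at 0. The numbers are mean FPKM over 4 libraries, and they show 160 FPKM for the downstream ENST00000418546 against 21.3 FPKM for ENST00000451786, which has the most upstream start.

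By FPKM, most of LINC-PINT came from the downstream start, which by estimated fragments held 51.6 ± 2.82% of the gene and 49.2% in replicate 4. Its 3 transcripts summed to 152.75, 205.98, 163.9 and 129.2 FPKM in replicates 1 to 4, against 35.29, 39.83, 33.95 and 31.42 FPKM for the 8 upstream transcripts. These ranges did not overlap, and replicate 2 was the highest for both. The means were 163 ± 32.1 FPKM at the downstream start and 35.1 ± 3.52 FPKM at the upstream starts, a mean log2 ratio of FPKM + 1 of 2.17 ± 0.15, or 4.49-fold, with the downstream start higher in 4 of 4 libraries (exact permutation p = 0.13). The downstream start was singled out because it holds the LINC-PINT transcript of highest mean, so this order was largely set by that choice. The permutation p therefore gives the order no support. The downstream start held 82.1 ± 1.52% of the gene's FPKM. The upstream starts alone were still above 5 FPKM, by 2.58 on the log2(FPKM + 1) scale (adjusted p of 7.3e-12 in limma).

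One short transcript carried that value. ENST00000418546 (578 nt, 3 exons, chr7:130568868-130597956) had 150.17, 201.35, 161.86 and 127.07 FPKM in replicates 1 to 4, a mean of 160 ± 31.1 FPKM. It held 80.7 ± 1.41% of LINC-PINT FPKM per library, and was above 5 FPKM by 4.73 on the log2(FPKM + 1) scale (adjusted p of 1.3e-10 in limma). The other 2 transcripts of this start were far lower. ENST00000432045, which as annotated now has MIR29B1 in its last exon, averaged 2.85 FPKM and was called below 5 FPKM (adjusted p of 0.028 in limma). Its version in the deposited table is older, so the model that was measured may not hold the hairpin. ENST00000447307 was listed at 0 in all 4 libraries. ENST00000418546 ends 6.57 kb before MIR29B1 and 7.3 kb before MIR29A, so the abundant transcript of the microRNA unit does not contain either hairpin.

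The bases that set ENST00000418546 apart are few. As annotated now, its first 2 exons and the first part of exon 3 lie in the other transcripts of the same start. At its end, 208 bases lie in no other LINC-PINT transcript. They follow directly on the base where exon 3 of ENST00000432045 and ENST00000447307 ends, so they are intron in both. In the deposited table both carry an older version, so which bases were unique in the authors' reference is not known. Of the 208 bases, 113 lay under repeated 24-mers, meaning those found 10 or more times in GRCh37, with up to 18435 copies of one 24-mer. RSEM, the authors' tool, assigns reads shared between transcripts by a model, and the part of shared or repeated bases in the value of 160 FPKM was not tested.

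**Figure D3:**
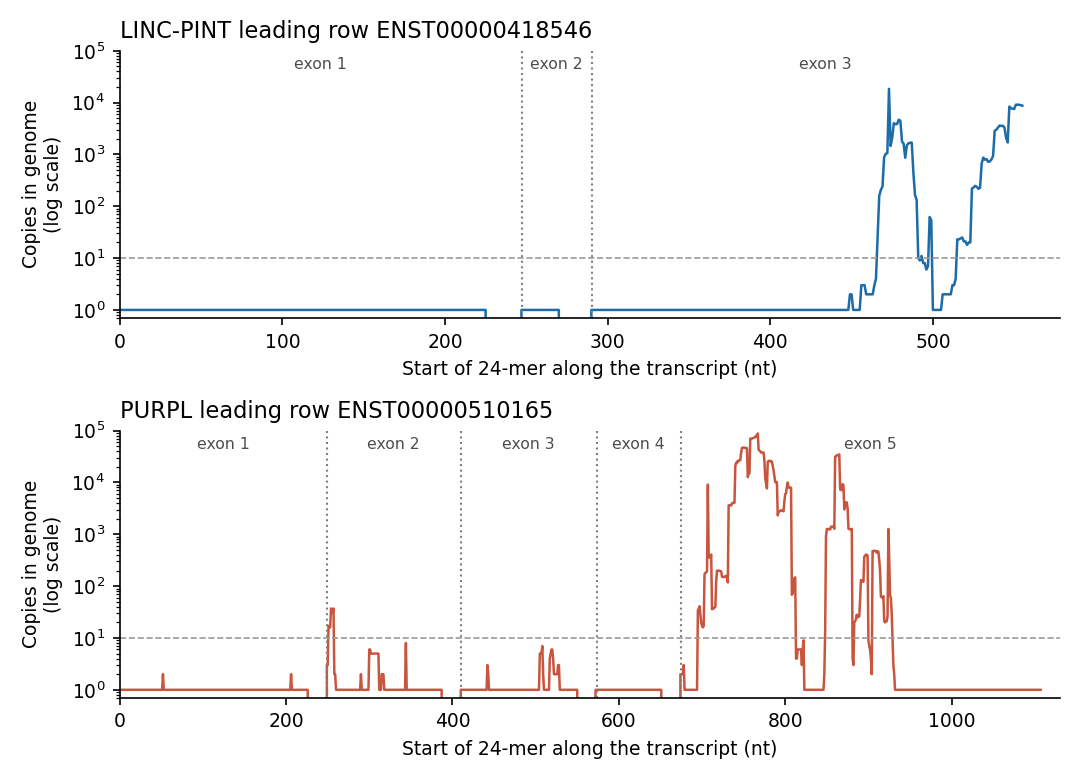
Copies in the GRCh37 genome (log axis) of each 24-mer along the leading LINC-PINT transcript ENST00000418546 and the leading PURPL transcript ENST00000510165, by position in nt. Dotted lines are exon junctions, where most 24-mers that span the junction have no copy in the genome and drop off the axis, and the dashed line is 10 copies. Most repeated sequence stood in the last exon of both, with up to 18435 copies in LINC-PINT and up to 88168 copies in PURPL. Exon 2 of the PURPL transcript also held 7 repeated 24-mers, with up to 37 copies.

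The second LINC-PINT transcript above 5 FPKM was the one with the most upstream start. ENST00000451786 (3512 nt, 6 exons, chr7:130628919-130794935) had 22.42, 23.33, 21.03 and 18.53 FPKM in replicates 1 to 4, a mean of 21.3 ± 2.09 FPKM. It was above 5 FPKM by 1.89 on the log2(FPKM + 1) scale (adjusted p of 3.6e-07 in limma) and made up 10.8% of the gene's mean FPKM. Its libraries lay close together, with a CV of 9.8% against 19.4% for ENST00000418546. Only 3.24% of its 24-mers were repeated, although exon 4, of 124 nt, was repeated in full. Its first exon overlaps an exon of MKLN1 on the opposite strand by 81 bases. Apart from this and the overlap of ENST00000432045 with the microRNA hairpins, no exon of a member was found to overlap an exon of another gene.

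The remaining LINC-PINT transcripts were low. ENST00000431189, a group 2 transcript, had 3.35, 7.13, 5.05 and 4.28 FPKM in replicates 1 to 4 and could not be placed on either side of 5 FPKM (adjusted p of 0.84 in limma). The same held for ENST00000435523 of group 3, with a mean of 3.46 FPKM (adjusted p of 0.097 in limma). In all, of 9 LINC-PINT transcripts tested, 2 were called above 5 FPKM, 5 below and 2 were not placed, and 2 more were listed at 0. Over the whole table, 41.9% of 11435 transcripts tested were called above and 43.3% below. The 5 called below had means of 0.92 to 2.85 FPKM.

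Because FPKM divides by length, a short transcript needs few fragments for a high value. Fragments were estimated from FPKM, the transcript length less 80 nt and the depth at which low values became whole. These depths were about 4490000, 4860000, 4750000 and 5060000 fragments for replicates 1 to 4, at which 68.8% to 69.8% of the low values came within 0.05 of a whole number. ENST00000418546 then stood for about 336, 487, 383 and 320 fragments in replicates 1 to 4, and ENST00000451786 for about 345, 389, 343 and 322. By this estimate ENST00000418546 drew more fragments than ENST00000451786 in replicates 2 and 3 and slightly fewer in replicates 1 and 4. The downstream start held 51.6 ± 2.82% of LINC-PINT fragments and the upstream starts 48.4 ± 2.82%, with the upstream starts at or above 50% in 1 of 4 libraries, where they held 50.8%. The estimates use current models, and 9 of the 11 LINC-PINT transcripts carry an older version number in the deposited table than in the annotation. ENST00000418546 has the same version in both, and ENST00000451786 does not.

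**Figure D4:**
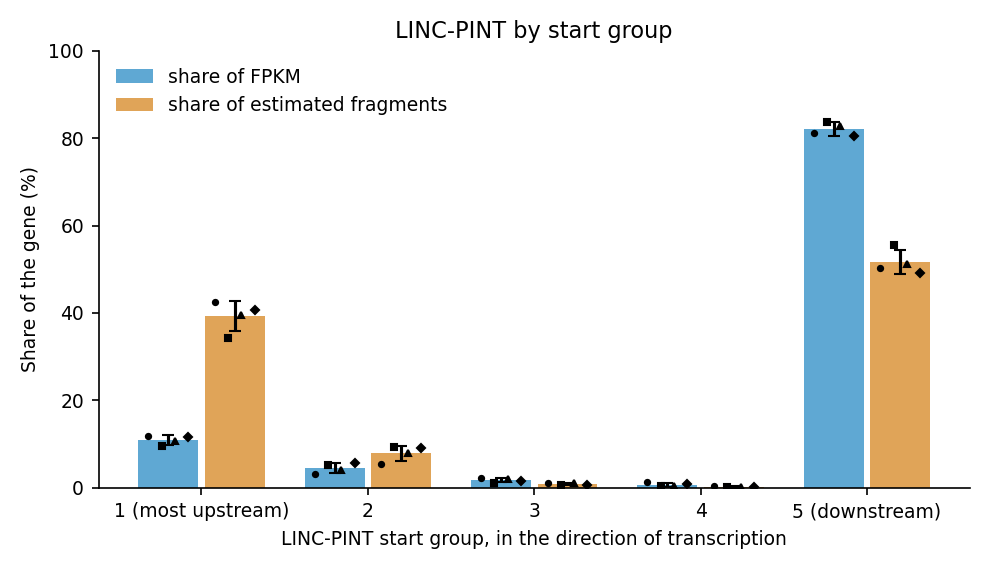
Share of LINC-PINT (%) held by each of its 5 start groups, by FPKM and by estimated fragments. Bars are means over 4 HUH7 libraries, error bars SDs and small markers the libraries. Group 5, the downstream start, held 82.1 ± 1.52% of FPKM and 51.6 ± 2.82% of estimated fragments, and group 1 held 10.9 ± 1.08% of FPKM and 39.3 ± 3.5% of estimated fragments.

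By FPKM, PURPL consisted almost wholly of 1 transcript. ENST00000510165 (1130 nt, 5 exons, chr5:27472378-27496511) had 53.83, 61.08, 66.37 and 47.41 FPKM in replicates 1 to 4, a mean of 57.2 ± 8.29 FPKM. It was above 5 FPKM by 3.27 on the log2(FPKM + 1) scale (adjusted p of 1.5e-09 in limma) and held 98.1 ± 1.36% of PURPL FPKM. In replicate 4 it was the only PURPL transcript listed above 0. ENST00000514255 had 1.27, 0.89, 1.79 and 0 FPKM, and ENST00000512067 had 0.44, 0.27, 0 and 0 FPKM. Both were called below 5 FPKM, and the other 3 PURPL transcripts were listed at 0 in every library. None of the 6 has the same version in the table and in the annotation, so the models may differ from those the authors used.

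As annotated now, ENST00000510165 is told from the other PURPL transcripts by a single junction. Each of its exons lies in another PURPL transcript, and 21 of its 1107 24-mers are in no other. They make up 44 nt across the join of exons 3 and 4, printed here because this is the only stretch of the transcript that no other PURPL transcript holds. Capitals mark the bases from exon 4.
ENST00000510165 exon 3 to 4 junction: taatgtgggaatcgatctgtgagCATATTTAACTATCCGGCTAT
ENST00000514844, which holds exons 1, 2, 4 and 5 of this transcript but takes other exons in place of exon 3, was listed at 0 in all 4 libraries. The last exon of ENST00000510165, of 456 nt, was 53.9% repeated bases, and 18.1% of the 24-mers of the whole transcript were repeated. Exons 1, 3 and 4 held 0 repeated 24-mers, and exon 2 held 7. The part of the repeated bases in the value was not tested.

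LINC-PINT varied between libraries by more than the median gene of its level, and PURPL by only slightly more than the median gene of its own. The CV was 17.9% for LINC-PINT, against a median of 11% for 816 genes of 100 to 500 FPKM. It was 15.3% for PURPL, against a median of 14% for 1571 genes of 20 to 100 FPKM. For LINC-PINT the spread lay at the downstream start, with a CV of 19.7%, against 10% at the upstream starts. Counting error alone would give a CV of about 5.12% for ENST00000418546, 5.35% for ENST00000451786 and 5.9% for ENST00000510165, against observed CVs of 19.4%, 9.8% and 14.5%. These counting errors rest on fragments estimated from current models. ENST00000451786 and ENST00000510165 carry an older version in the deposited table, so theirs may be larger or smaller. Error from the assignment of shared reads was not estimated. Replicate 2, the highest for LINC-PINT, also had the highest median-of-ratios size factor of the 4 libraries, 1.12 against 0.925 to 1.02.

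Other lncRNAs linked to p53 were also present in these cells. On a list of 21 such genes, 17 had a transcript in the table, 14 were called above 5 FPKM, 0 below, 2 were not placed and 1 was listed at 0. The median of the 17 was 85.4 FPKM, beside 7.61 FPKM over all genes tested, and 82.4% of them were called above, beside 50.3% of all genes tested called above and 38.5% called below. The 17 include the gene listed at 0, which was not tested, so the list and the genes tested were filtered differently. Such a list holds well-studied genes, and nothing particular to p53 follows from its count. With only transcripts of the same version in the table and the annotation, where fewer genes have a value, 3 were called above. PANDAR, TP53COR1, DINOL and RMRP were not analysed here.

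Of the 12 listed genes known to be induced by p53, 9 were measured and 8 were called above 5 FPKM. TUG1, a chromatin-linked lncRNA, had 336 ± 40.1 FPKM, and PVT1, the lncRNA gene beside MYC, had 271 ± 26.2 FPKM. LINC-PINT was next to these and PURPL lower. Between them stood MIR22HG, the host gene of miR-22, at 138 ± 45.5 FPKM and TP53TG1, at 115 ± 9.79 FPKM. The ranges of PURPL and of NEAT1, the scaffold RNA of nuclear paraspeckles, overlapped, with 40.18 to 71.61 FPKM for NEAT1. MIR34AHG, the host gene of the p53-induced miR-34a, was lower, with 7.51, 15.51, 11.48 and 12.04 FPKM in replicates 1 to 4, a mean of 11.6 ± 3.28 FPKM. TUSC7 was listed at 0 in all 4 libraries.

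Of the 9 listed genes known to act on p53 or its output, 8 were measured and 6 were called above 5 FPKM. The highest were GAS5, a small nucleolar RNA host gene, at 3584 ± 234 FPKM, SNHG1, another such host gene, at 2375 ± 175 FPKM, and MALAT1, a nuclear speckle RNA, at 1098 ± 298 FPKM. CDKN2B-AS1, antisense to a cell cycle inhibitor gene, had 85.4 ± 13.7 FPKM and MEG3, an imprinted lncRNA, had 50.6 ± 3.28 FPKM. LINC-ROR, known for repressing p53 translation, had 7.48 ± 2.29 FPKM and a narrow call (adjusted p of 0.043 in limma), which was lost without replicate 2 (adjusted p of 0.18) and without replicate 3 (adjusted p of 0.17). H19, an imprinted lncRNA, at 5.93 ± 2.38 FPKM, and LINC00472, at 4.6 ± 1.72 FPKM, were not placed. The table holds non-coding transcripts, so mRNAs of coding p53 targets such as CDKN1A were not analysed here.

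**Figure D5:**
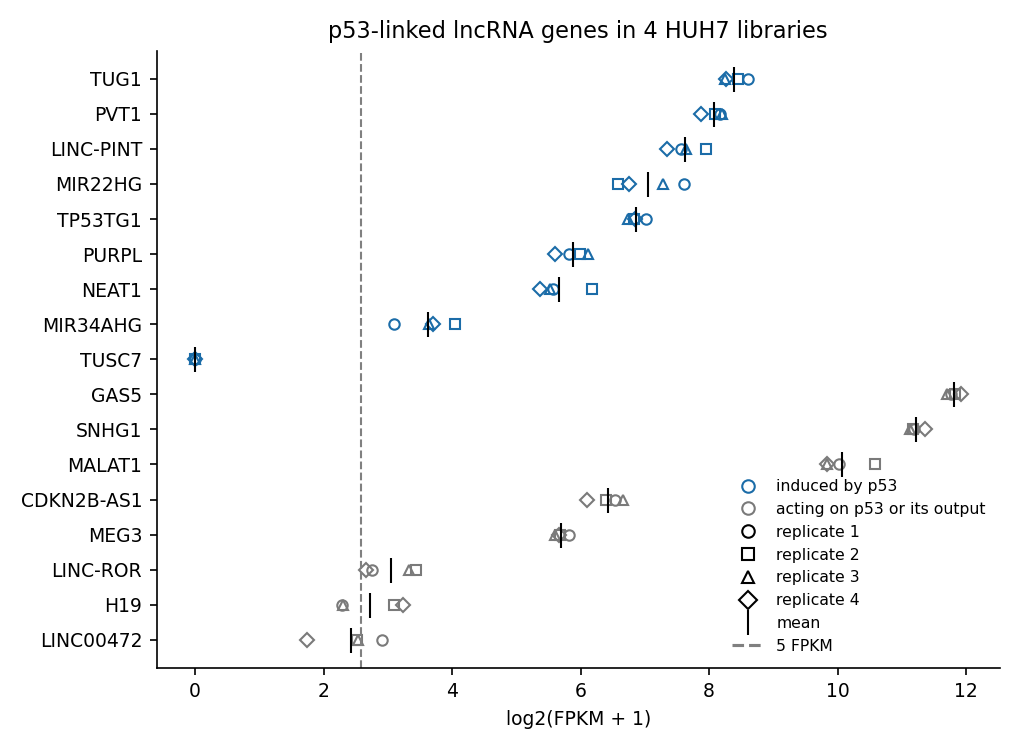
Levels of the 17 measured p53-linked lncRNA genes, as log2(FPKM + 1), with genes known to be induced by p53 in blue and genes known to act on p53 or its output in grey. Markers are the 4 HUH7 libraries, ticks their mean on this scale, and the dashed line is 5 FPKM. Among the 9 induced genes LINC-PINT (198 FPKM) stands below TUG1 and PVT1, PURPL (58.3 FPKM) stands just above NEAT1, and TUSC7 is at 0.

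Among 2965 named lncRNA genes, those closest to LINC-PINT in level were MAP3K2-DT, LINC02176 and BBS7-DT, with mean absolute log2 differences of 0.071, 0.077 and 0.088 over 4 libraries. Those closest to PURPL were PCDH10-DT, MIR3659HG and CEP250-AS1, with 0.056, 0.058 and 0.059. Around the LINC-PINT locus, LINC00513 runs on the opposite strand across the downstream start without sharing an exon base with LINC-PINT, and had 130.54, 175.96, 159.3 and 154.56 FPKM in replicates 1 to 4. A transcript of MKLN1-AS, 200 kb away on the same strand, averaged 93.4 ± 12.2 FPKM. Near PURPL the only other gene within 200 kb with a transcript in the table was ENSG00000248490, listed at 0.

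Liver lncRNAs were used to check the cell type named in the labels. Of 8 measured liver lncRNAs 5 were called above 5 FPKM, led by HULC at 693 ± 64.8 FPKM, while FAM99A and FAM99B were called below and LINC01093 was listed at 0. The 5 make up 62.5% of the 8, beside 50.3% of all 7124 genes tested, so this count alone does not show the cell type. Of 6 markers of other cell types 0 were called above, 2 were called below and 4 were too low to be tested. Their summed level was 2.69 to 9.08 FPKM per library, beside 1666 to 1847 FPKM for the liver markers. Summed FPKM over all transcripts ran between 1755972 and 1965229 per library, and correlations between libraries over 11434 transcripts lay between 0.955 and 0.958 as a description.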

How the data were processed

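RNA of 4 HUH7 libraries was measured after ribosomal RNA removal with strand-specific libraries, per the labels, which also name polyA RNA. The authors deposited FPKM values, made per the submitters' notes and the study's methods with Bowtie 1.01 and RSEM 1.2.3 on an Ensembl release 68 non-coding annotation, on hg19 (GRCh37). Coding transcripts were outside that reference. The strand setting of the alignment is not given in the sources used here. Of 19835 identifiers, 18373 matched GENCODE release 44 on GRCh37, 11445 with the same version.

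Gene values were sums of transcripts. Features averaging 0.1 FPKM or more were tested on log2(FPKM + 1), against the same transform of 5 FPKM, in limma 3.58.1 (R 4.3.3, moderated one-sample test with trend, two-sided, Benjamini-Hochberg threshold of 0.05), a script checked on simulated data. Log2(FPKM + 1) differences understate those of low genes. Ratios within libraries had an exact sign-flip permutation test. Some items withheld for evaluation are not reported here. The 24-mers were counted on both genome strands. Named were both genes, transcripts with at least 5% of a gene or called above, listed p53 genes, the nearest levels and neighbours within 200 kb. Members and lists were chosen with earlier results of these data known. Alternatives were other pseudocounts, filters, thresholds, scalings, row choices and leaving out each library. Splits by start group, and the ratio by estimated fragments, were chosen after seeing the data.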

Additional observations from a re-analysis of the deposited data

Results flagged for a closer look

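The log2 ratio of the upstream LINC-PINT starts over PURPL had 1 library far from the others. Replicate 3 stood at -0.98, against -0.64, -0.63 and -0.58 in replicates 1, 2 and 4. The gap to its nearest neighbour was 0.849 of the whole range, over Dixon's 95% critical value for 4 samples. It was 1 of 37 sets of 4 values looked at, and chance passes about 1 in 20. In replicate 3 PURPL had its highest value, 68.16 FPKM, and the upstream starts had 33.95 FPKM, the second lowest of the 4.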

How the results depend on the processing

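Of 88 alternatives run over all results, 78 kept the direction and the side of the threshold, or stayed near the value. Counting the upstream LINC-PINT starts alone reversed the log2 ratio over PURPL to -0.71, against 1.74 with all transcripts, since 3 transcripts are then left out. The number of LINC-PINT transcripts above 5 FPKM, 2, became 5 at a threshold of 1 FPKM, 1 with transcripts of the same version only, 1 with the upstream starts only and 1 with the downstream start only. The p53-linked genes above 5 FPKM, 14, became 3 with transcripts of the same version only, where fewer genes have a value. The share of the leading LINC-PINT transcript, 80.7%, became 99.1% with the same version only, 98.3% within the downstream start and 42.3% by estimated fragments, and that of PURPL, 98.1%, became 91.2% by estimated fragments. Leaving out 1 library at a time gave log2 ratios of LINC-PINT over PURPL of 1.67 to 1.82, log2 differences from 5 FPKM of 4.93 to 5.13 for LINC-PINT and 3.22 to 3.39 for PURPL, leading shares of 80.3% to 81.2% and 97.5% to 98.5%, and 13 to 14 p53-linked genes. Dividing each library to a common sum of 1000000 lowered LINC-PINT to 105.6 FPKM and PURPL to 31 FPKM, both still above 5 FPKM, and gave 12 p53-linked genes above. Over the alternatives the adjusted p in limma was 7.7e-19 to 6.6e-06 for LINC-PINT and 1.4e-15 to 1.8e-05 for PURPL. No PURPL transcript has the same version, so that alternative gave no PURPL value and no ratio. No paired analysis was possible because the libraries form 1 group, the letters H and L being given as internal names. At this depth counting error differs widely between the low isoforms, with about 86.3 estimated fragments per library for ENST00000432045 and about 1.95 for ENST00000416999.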
